A study of Mus musculus with 8 samples.

Results

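The genes described here are those for small nucleolar RNAs (snoRNAs) and small Cajal body RNAs (scaRNAs) in mouse neutrophils that had entered an inflamed air pouch. Members were the probe sets with exactly 1 platform gene symbol that starts with Snord, Snora or Scarna. With the probe set of the highest mean kept for each gene, they came to 78 genes of the 22180 genes with a single symbol. They comprised 47 Snord, 26 Snora and 5 Scarna genes. A probe set was tested where at least 2 arrays passed the median of all values (5.45, log2), and 74 of the 78 members passed. The 4 that did not were Snora19, Snora20, Snord85 and Snord91a. A further 46 probe sets carried a symbol of this kind among several and were left out by the rule, which removed all but Snord35a of the Rpl13a set (Snord32a, Snord33, Snord34 and Snord35a).

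RNA levels were read on Affymetrix Mouse Gene 2.0 ST arrays. Each of the 8 arrays held RNA of neutrophils pooled from 5 mice. All pools came from air pouches that had received lipopolysaccharide (LPS), and negative selection left 98% Ly6G-positive cells, per the series' design text. The conditional knockout of Arf6, a small GTPase of membrane traffic, was homozygous for the floxed allele and for Cre (flox+/+Cre+/+, cKO, 3 arrays). The flox control carried the floxed allele without Cre (flox+/+Cre-/-, 3 arrays), and the Cre control carried Cre without the floxed allele (flox-/-Cre+/+, 2 arrays). The labels give neither the promoter that drives Cre nor strain, sex or age, and the source field of each sample contradicts its title and genotype label. The titles and genotypes were followed, and the Arf6 level goes with them. It was 8.19, 8.20 and 7.68 (log2) in the flox control pools, 7.79 and 7.86 in the Cre control pools, and 6.49, 6.06 and 6.20 in the cKO pools. Relative to both controls Arf6 fell by 1.67 (SE 0.15, limma adjusted p = 0.0122, n = 3 against 5). The 10 neutrophil markers had mean levels from 11.25 to 11.82 on the 8 arrays. Flox control 1 had an Xist level of 5.46 against at least 7.84 elsewhere, and cKO 1 had an Eif2s3y level of 4.08 against at least 8.66 elsewhere, so these 2 pools differ from the rest in sex-linked transcripts. Pools are numbered by replicate within a group.

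SnoRNAs are short, stable RNAs of the nucleolus that pair with other RNAs and direct their chemical modification. Box C/D RNAs (mostly Snord) sit in a particle with fibrillarin and guide ribose methylation, and box H/ACA RNAs (mostly Snora) sit with dyskerin and guide the conversion of uridine to pseudouridine. ScaRNAs do the same for spliceosomal RNAs in Cajal bodies. In mammals most are cut out of the introns of host genes, many of which encode ribosomal proteins or are themselves noncoding, and a few are transcribed from promoters of their own.

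Many host genes start transcription at a C within a run of pyrimidines. The starts of 4 hosts the results turn on are shown for that reason, from RefSeq on GRCm38.p6, each with 30 bases before and 30 from the annotated start, and with a CTTTC or CTTTT in capitals. Snhg12 and 2410006H16Rik hold the most members, Wdr43 holds Snord53, and Rps3 holds Snord15a.
Snhg12: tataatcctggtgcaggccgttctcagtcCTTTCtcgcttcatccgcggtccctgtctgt
2410006H16Rik: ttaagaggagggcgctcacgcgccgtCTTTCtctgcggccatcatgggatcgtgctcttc
Wdr43: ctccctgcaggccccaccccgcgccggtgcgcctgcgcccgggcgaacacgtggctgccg
Rps3: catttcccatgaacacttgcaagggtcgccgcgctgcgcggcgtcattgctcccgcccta
They lie at chr4:132308648-132308707 (plus strand), chr11:62602847-62602906 (plus strand), chr17:71616185-71616244 (plus strand) and chr7:99483680-99483739 (minus strand). In the first pair the motif spans the annotated start, and neither motif was found in the window of Wdr43 or of Rps3 on either strand. CTTTC or CTTTT was found on the sense strand in 13 of 43 host windows (30.2%) and in 15.5% of all 27025 gene windows of the same length. On the opposite strand the shares were 4.65% and 15.7%. A match is a description of these letters only.

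Members were bright on the array. Of the 78 genes, 67 lay above the median of all values on all 8 arrays and 60 lay above the 75th percentile (6.64). The annotated length had a median of 68 bases for Snord, 120.5 for Snora and 71 for Scarna genes, from 48 to 248 bases in all. Snora33 had a pair of probe sets that disagreed, with means of 6.82 and 13.66 (log2), and the second was used. It ran from 13.52 to 13.80, near the highest values of the arrays (14.10 to 14.17), so differences in it are hard to read. The set left out ran from 6.25 to 7.78 and was highest in flox control 1. It differed by -0.63 between the cKO and the flox control (SE 0.28, limma unadjusted p = 0.048, adjusted p = 0.598) and is not counted below. The pair of Scarna17 was alike, with a largest difference of 0.20. The pair of Snora19 had identical values on all 8 arrays, so it gives no separate readings.

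Their levels differed more between arrays than those of the probe sets as a whole. The SD over the 8 arrays had a median of 0.31 over the tested members and 0.19 over all 14002 probe sets tested, and 60 of the 74 members lay above the latter. Within groups the medians were 0.29 and 0.18, so the wider spread was also present among pools of the same genotype. The gap between the highest and lowest array had a median of 1.00, against 0.57 over all probe sets. It was narrower for the 10 members with a mean level above 12 (median 0.46) than for the 48 with a mean of 8 to 12 (median 1.05). A wide gap was not particular to the members. Its median was 1.095 over 26 probe sets with a snoRNA or scaRNA among several symbols, and 1.14 over a list of 6 other short RNAs. It was 0.86 over 201 probe sets of microRNA genes and 0.42 over 5 of small nuclear RNA genes.

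The members moved together, and the array they followed was a single control pool. Of the 74 tested members, 62 had their highest level on the array of flox control 1 (83.8%), where 22% of all probe sets tested had theirs. The median deviation of a member from its own mean over the arrays was 0.62 there, which is 1.53-fold. It was 0.16 in flox control 2 and -0.17 in flox control 3. The cKO pools had -0.17, 0.06 and -0.03, and the Cre control pools -0.08 and -0.29. Over all probe sets tested, the median deviation lay between -0.02 and 0.02 on each array. The 3 pools of the flox control thus lay further apart than the 3 of the cKO or the pair of the Cre control. The levels of 63 of 74 members fell in the order flox control 1, 2 and 3, which 26.4% of all probe sets shared. Cre control 2 held the lowest level of 36 members, against 10.04% of all probe sets.

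**Figure D1:**
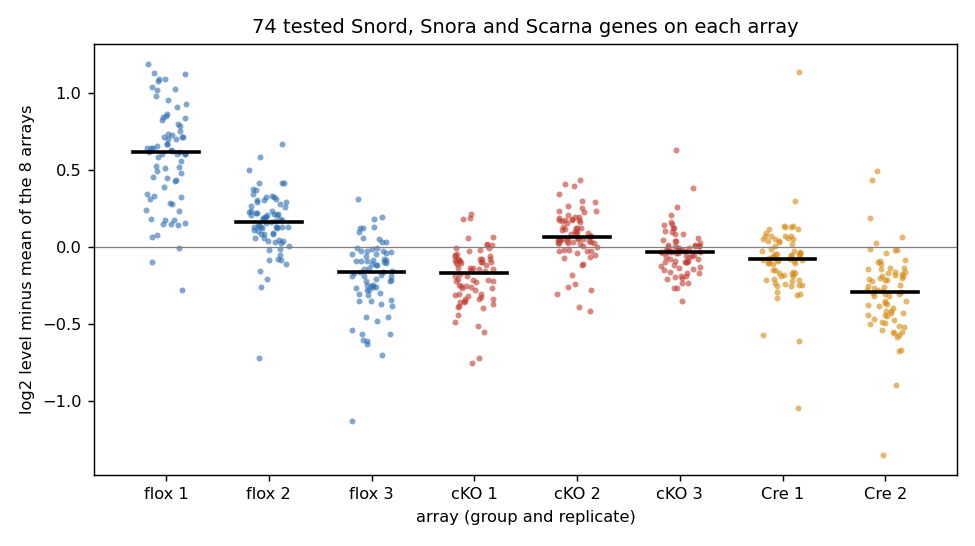
Each point is 1 of the 74 tested members, plotted as its log2 level minus its own mean over the 8 arrays, and black bars are medians over the members. The points of flox control 1 sit highest (median 0.62) and those of Cre control 2 lowest (median -0.29), while the 3 cKO arrays lie between.

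The same pool stood out when it was compared with each other array. Of the 74 members, 69 were higher in flox control 1 than in flox control 2, and 71 were higher than in flox control 3. Against the other arrays the count ran from 66 (cKO 2) to 72 (cKO 1 and cKO 3). With flox control 1 left out, flox control 2 was the highest of the 7 remaining arrays for 47 members, against 13.8% of all probe sets. All 3 kinds of member took part. Flox control 1 was highest for 34 of 45 Snord, 23 of 24 Snora and 5 of 5 Scarna genes, with median deviations of 0.51, 0.79 and 0.64. Longer RNAs deviated somewhat more (Pearson r = 0.33, Spearman rho = 0.26 over 74 members of the same arrays, a description).

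Other short noncoding RNAs were set beside the members. Among 26 probe sets that carry a snoRNA or scaRNA among several symbols, 24 were highest in flox control 1 (92.3%). In a list of 6 other short RNAs, 5 were: Rpph1, the RNA of RNase P; Terc, the telomerase RNA, which has an H/ACA domain; Vaultrc5, a vault RNA; and the Y RNAs Rny1 and Rny3. Vaultrc5 read 7.93, 7.14 and 6.21 (log2) in the flox control pools, 6.50, 6.54 and 6.63 in the cKO, with 6.27 and 6.09 in the Cre control. Rn7sk, which restrains transcription elongation, lay at 14.06 to 14.12 on all arrays, at the top of a scale whose highest values were 14.10 to 14.17, so a difference in its level could not be read. Of the 3 tested Rnu genes, Rnu3a was highest in flox control 1, at 9.54, 9.16 and 8.15 in the flox pools. It encodes U3, a box C/D RNA of ribosome assembly that the symbol rule does not take in. Probe sets of microRNA genes lay lower, with 25 of 201 highest in flox control 1 (12.4%) and a median deviation there of -0.17. Long noncoding (22.7% of 706) and protein-coding genes (21.7% of 12693) lay near the share of all probe sets.

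**Figure D2:**
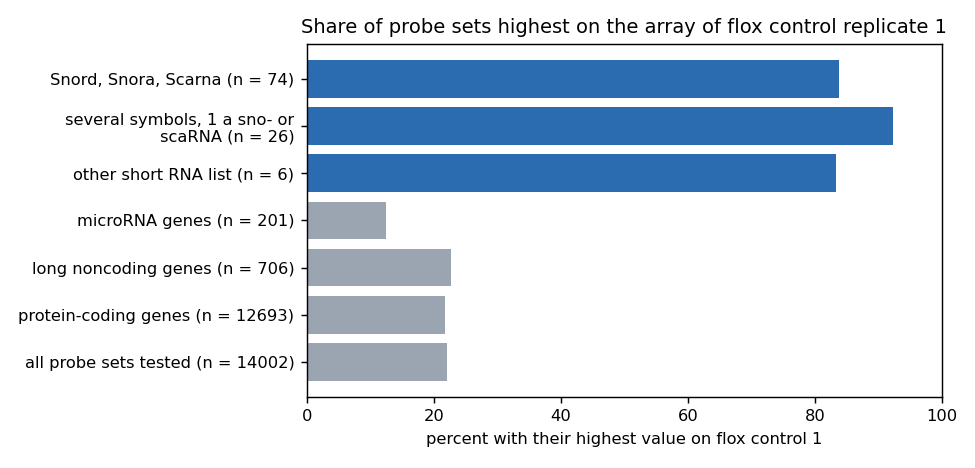
Bars give the percent of tested probe sets of each class whose highest level was on the array of flox control 1. Snord, Snora and Scarna genes reach 83.8%, and all probe sets tested 22%, with microRNA genes at 12.4%.

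Each array is a separate pool, so preparation, RNA quality and the mice of a pool cannot be told apart for flox control 1. Over the whole table it correlated with the rest at 0.981 on average, where the other 7 arrays had 0.984 to 0.989. Of the 10 neutrophil markers, 6 were highest there. Between the controls 9 of the 10 were lower in the Cre control, with a median of -0.28, 4 at unadjusted p under 0.05 and 0 past the limma threshold. Of all probe sets, 7.86% were lower and 6.85% higher at that unadjusted p. All of the 10 but Csf3r and Retnlg fell in the order flox control 1, 2 and 3. Csf3r rose there from 13.26 to 13.34 and 13.42, and Retnlg from 13.08 to 13.17 and 13.29. The largest differences between the controls were those of Camp (-0.84), Ltf (-0.78) and Ngp (-0.68), which encode granule proteins, and Ly6g (-0.49). The 8 tested dendritic cell and class II markers had a median deviation of -0.33 in flox control 1 and -0.36 in flox control 3, and their mean level was 7.91 to 8.29 in the flox control, 8.27 to 8.56 in the cKO and 8.39 to 8.51 in the Cre control. The 7 tested T and NK cell markers had mean levels of 6.10 to 6.37, 6.52 to 6.64 and 6.65 to 6.92 in the same order. The part of these cells, of RNA quality and of the sex-linked difference in the members' levels was not tested. Fewer cells of a type and less RNA per cell cannot be told apart in pooled samples.

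The widest ranges over the arrays belonged to 6 members, and flox control 1 was highest in 5 of them. Snora69, in the ribosomal protein gene Rpl39, read 10.69, 9.94 and 8.89 (log2) in the flox control, 9.24, 9.94 and 9.40 in the cKO, with 9.51 and 9.17 in the Cre control. Scarna6, in the autophagy gene Atg16l1, read 10.86, 10.03 and 9.43, then 9.35, 9.87 and 9.62, then 9.70 and 9.07. In both, flox control 1 was highest and the 3 groups overlapped. Snora7a in Rpl32 read 9.86, 9.24 and 8.29 in the flox control, 8.10, 9.0 and 8.99 in the cKO, with 8.88 and 8.24 in the Cre control. Snord19, in the nucleolar GTPase gene Gnl3, read 6.74, 5.83 and 4.98, then 5.49, 5.48 and 5.67, then 4.98 and 5.23. For Snord19 the cKO lay wholly above the Cre control, by 0.44 (SE 0.39, limma adjusted p = 0.690). In Snord53 and Snord15a, the other two, the Cre control stood apart, and they are described with the controls.

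The 5 scaRNA genes all had their highest level in flox control 1. Scarna2, which acts on the spliceosomal U2 RNA and has no host in the annotation, read 11.49, 10.98 and 10.66 in the flox control, 10.76, 10.82 and 10.82 in the cKO, with 10.68 and 10.59 in the Cre control. Scarna8 ran wider, at 8.30, 7.89 and 6.61, then 6.87, 7.49 and 6.98, then 6.91 and 6.72. Scarna10, in the condensin gene Ncapd2, ran from 11.84 in Cre control 2 to 12.47 in flox control 1. Scarna17 read 10.33, 10.22 and 9.71 in the flox control, 9.44, 9.81 and 9.55 in the cKO, with 9.48 and 9.23 in the Cre control. Both Cre control pools lay below all flox control pools for Scarna17, by 0.73 (SE 0.20, limma adjusted p = 0.129).

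The 12 members not highest in flox control 1 included Snord47, which had the narrowest range of the 74. It lies in the noncoding gene Gas5 and stayed between 12.03 and 12.24 on all 8 arrays, and Snord89 between 10.51 and 10.74. Snord82, in the nucleolin gene Ncl, ran from 12.15 to 12.52. Snord47 and Snord82 had mean levels above 12, where ranges were narrower. The others were Snora41, Snord123, Snord15a, Snord49b, Snord72, Snord88a, Snord88c, Snord90 and Snord92.

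Loss of Arf6 was first set against both control groups. No member passed the threshold of limma adjusted p = 0.05 (1 of 14002 probe sets, 0.00714%, did). At unadjusted p under 0.05 there was 1 member of 74 against 9.52% of all probe sets. The median log2 fold change was -0.05 over the members and 0.01 over all probe sets, with 20 members higher and 54 lower. That direction depended on single pools. Without flox control 1, 49 members were higher and 24 lower, with a median of 0.04. Without cKO 1 they split 38 to 36, and without Cre control 1 they split 37 to 37. Without flox control 1 and cKO 1, the pools whose sex-linked transcripts differ, 61 were higher and 12 lower. In no member did the cKO pools lie wholly above or below the 5 control pools, which 2.11% and 2.25% of all probe sets did.

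The member with the smallest p in this comparison was Snord53, higher by 0.83 (SE 0.15, limma adjusted p = 0.217), whose levels are given with the controls. The next members differed by less. Among the higher ones, Snord118 (U8), which is needed for the processing of the large ribosomal subunit RNAs, differed by 0.31 (SE 0.19, limma adjusted p = 0.671). Snord13 (U13), which acts on the small subunit RNA, differed by 0.22 and Snord99 by 0.12. Among the lower ones, Snora2b differed by -0.36 (SE 0.27), Snord90 by -0.28, Snora78 by -0.20 and Snord65 by -0.19, with limma adjusted p from 0.583 to 0.765. Snora2b read 6.70, 6.20 and 5.70 in the flox control, 5.03, 6.03 and 5.52 in the cKO, with 5.84 and 5.30 in the Cre control, so the groups overlapped.

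Against the flox control alone, 65 members were lower and 9 higher in the cKO, with a median of -0.24 (all probe sets 0.01). No member passed the threshold, which 6 probe sets (0.0429%) did. At unadjusted p under 0.05 there were 4 members, all lower, against 8.26% of all probe sets in either direction and 3.98% lower. They were Scarna17 (-0.49, SE 0.18), Snora30 (-0.45, SE 0.18), Snord111 (-0.40, SE 0.17) and Snora2b (-0.67, SE 0.30), with limma adjusted p from 0.531 to 0.597. In 2 members the cKO lay wholly below the flox control, against 6.31% of all probe sets, and in none above it (5.93%). Without flox control 1 the median was -0.05 and the split 28 higher to 45 lower. Without flox control 1 and cKO 1 it was 0.02, with 42 higher and 31 lower.

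Snora30, in the chromatin remodeller gene Srcap, read 10.15, 9.68 and 9.45 in the flox control, 9.28, 9.18 and 9.47 in the cKO, with 9.12 and 9.02 in the Cre control. Snord111, in the splicing factor gene Sf3b3, read 9.65, 9.18 and 9.05, then 8.67, 9.07 and 8.97, then 8.78 and 8.82. For both, the highest cKO pool reached above the lowest flox control pool.

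Against the Cre control the direction was the opposite. In the cKO 59 members were higher and 15 lower, with a median of 0.13 (all probe sets 0.01), and flox control 1 has no part in that mean. The cKO lay wholly above the Cre control in 14 members and below it in 4, against 18.5% and 16.0% of all probe sets, so the first share was near the background. The median was 0.03 without Cre control 2 and 0.23 without Cre control 1. At unadjusted p under 0.05 there were 2 members, Snord53 and Snord118, against 13.5% of all probe sets. Snord53 passed the threshold, as 10 of 14002 probe sets did (0.0714%).

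The largest median difference was that between the control groups. In the Cre control 69 members were lower and 5 higher than in the flox control, with a median of -0.37 (all probe sets -0.00). The Cre control lay wholly below the flox control in 16 members and above it in 2, against 17.4% and 15.3% of all probe sets. At unadjusted p under 0.05 there were 13 lower members (7.86% of all probe sets) and 1 higher member (6.85%). Snord53 alone passed the threshold, against 0.486% of all probe sets. Without flox control 1 the median was -0.19, with 63 members lower and 10 higher. This comparison shares the Cre control and the flox control pools with those of the cKO, so it is no independent look at them.

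**Figure D3:**
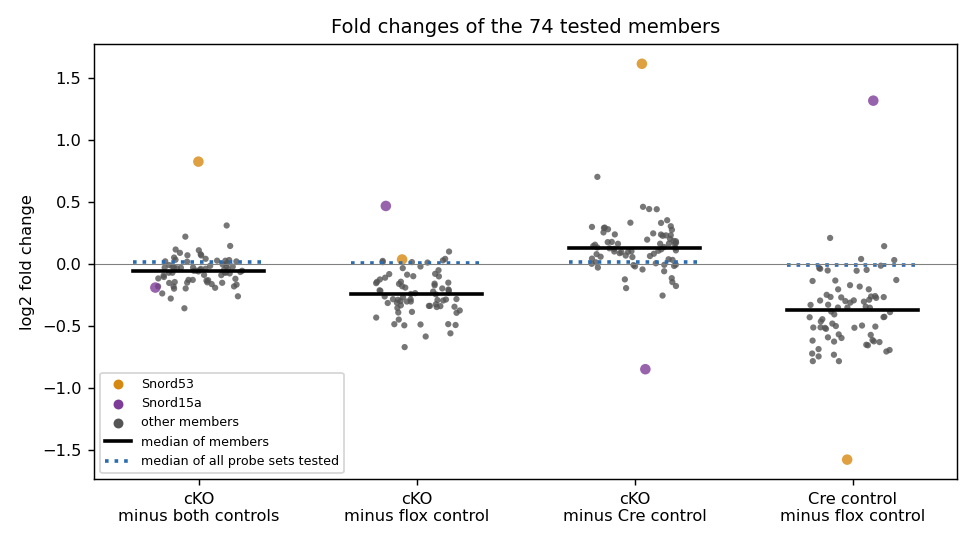
Points are log2 fold changes of the 74 tested members in each comparison, solid bars their medians (-0.05, -0.24, 0.13 and -0.37) and dotted bars the medians of all probe sets tested. Snord53 and Snord15a lie apart from the other members at opposite ends of the comparison of the controls.

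Snord53, a box C/D RNA in the gene of the ribosome assembly factor Wdr43, was low in the Cre control. It read 9.35, 9.08 and 8.83 (log2) in the flox control, 8.92, 9.11 and 9.34 in the cKO, with 7.66 and 7.35 in the Cre control. Both Cre control pools lay below the other 6, which overlapped. Snord53 was 2.99-fold lower in the Cre control than in the flox control (log2 -1.58, SE 0.19, limma adjusted p = 0.0143). In the cKO it was 3.07-fold higher than in the Cre control (1.62, SE 0.19, limma adjusted p = 0.0266) and differed from the flox control by 0.04 (SE 0.17). Against both controls the difference was 0.83 (SE 0.15, limma adjusted p = 0.217).

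The size of these differences varied less than their adjusted p. Leaving out single pools moved the log2 difference between the controls from -1.74 to -1.43 and that between the cKO and the Cre control from 1.46 to 1.77. The limma adjusted p passed 0.05 in both comparisons without flox control 2 (0.0544 and 0.0964), Cre control 1 (0.194 and 0.445) or Cre control 2 (0.198 and 0.293). Without cKO 1 it did so for the cKO against the Cre control (0.0556), where 0 of 13905 probe sets were past the threshold. Without flox control 2, other probe sets still were, 18 of 13894 between the controls and 3 of 13894 for the cKO against the Cre control. With a Cre control pool left out, that group is 1 array assumed to vary like the others, and no probe set of the whole table passed the limma threshold in any comparison, with 1145 (without Cre control 1) and 1326 (without Cre control 2) at unadjusted p under 0.05 between the controls, so the lost call is not particular to Snord53. With the median member level of each array as a covariate, an alternative chosen after seeing the data, the difference between the controls was -1.31 (limma adjusted p = 0.0502) and that between the cKO and the Cre control 1.54 (limma adjusted p = 0.00585). Over all 19 alternatives the limma adjusted p ran from 0.00112 to 0.198 for the controls and from 0.00468 to 0.445 for the cKO against the Cre control.

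The difference read for the other RNA of the host was smaller, and that of the host went the other way. Neither was tested against Snord53. Snord92, the other member inside the span of Wdr43, read 5.42, 6.28 and 6.01 in the flox control, 5.68, 5.80 and 5.78 in the cKO, with 5.09 and 5.53 in the Cre control, with a difference between the controls of -0.59 (SE 0.23, limma adjusted p = 0.280). Snord92 lay near the filter level of 5.45 and above it on only 6 of the 8 arrays. The size of its difference can therefore not be set against that of Snord53. Wdr43 itself read 7.41, 7.71 and 7.02, then 7.80, 7.37 and 7.65, then 7.92 and 8.20. It was higher in both Cre control pools than on the other 6 arrays, by 0.68 over the flox control (SE 0.21, limma adjusted p = 0.178), while Snord53 was lower there.

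Snord15a (U15), a methylation guide of the large subunit RNA in the ribosomal protein gene Rps3, had the widest range of all members. Unlike most members, Snord15a was higher in the Cre control than in the flox control. Its flox control pools fell in the order 1, 2 and 3, as those of most members did. It read 9.47, 8.41 and 8.0 in the flox control, 9.31, 8.72 and 9.26 in the cKO, with 10.27 and 9.62 in the Cre control. Both Cre control pools lay above the other 6. The level was 2.5-fold higher in the Cre control than in the flox control (log2 1.32, SE 0.39, limma adjusted p = 0.154), and the cKO was 0.85 below the Cre control on the log2 scale (SE 0.39, limma adjusted p = 0.376). Between the controls the limma adjusted p ran from 0.0186 with array weights to 0.656 over 19 alternatives, and without flox control 1 it was 0.0478 (log2 1.74). The host Rps3 read 7.67, 7.55 and 7.16, then 8.03, 7.88 and 7.86, then 8.25 and 8.21, and was 0.77 higher in the Cre control (SE 0.16, limma adjusted p = 0.0751).

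**Figure D4:**
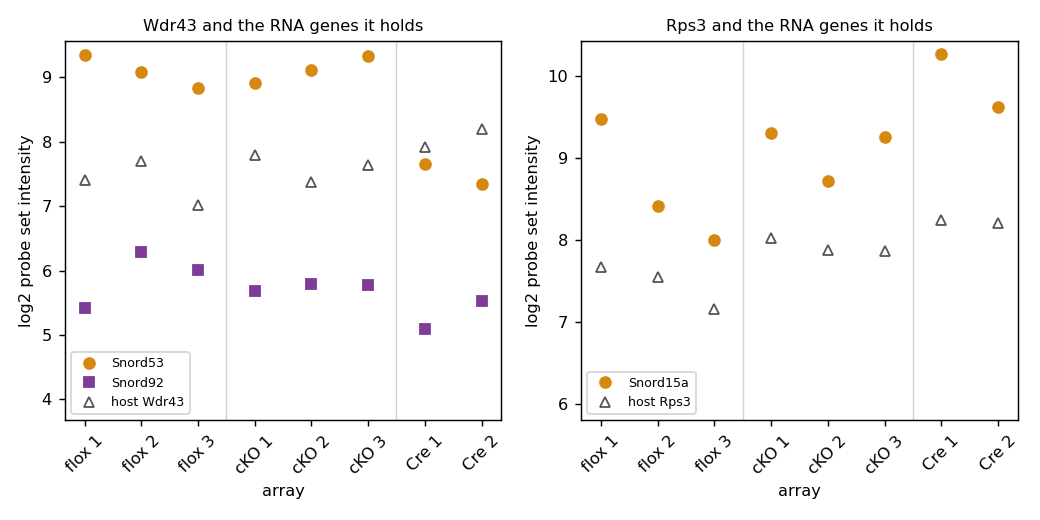
Log2 probe set intensity on each array for Snord53, Snord92 and their host Wdr43 (left) and for Snord15a and its host Rps3 (right), with grey lines between groups. In the Cre control Snord53 is lowest (7.66 and 7.35) where Wdr43 is highest, and Snord15a and Rps3 are both highest there. Only the pattern over arrays can be compared between probe sets, not the height.

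Further members had smaller differences between the controls. Snord118 read 7.63, 7.24 and 6.89 in the flox control, 7.21, 7.07 and 7.23 in the cKO, with 6.81 and 6.13 in the Cre control. Both Cre control pools lay below the other 6, with -0.79 against the flox control (SE 0.24, limma adjusted p = 0.171) and 0.70 for the cKO against the Cre control (SE 0.24, limma adjusted p = 0.256). Snora30 differed between the controls by -0.69 (SE 0.20, limma adjusted p = 0.145). Snora35, in the serotonin receptor gene Htr2c, was among the 5 higher members, with 0.21 (SE 0.20), and so were Snord89 (0.14, SE 0.12) and Snord47 (0.04, SE 0.12). For Snora35 and Snord47 the pools of the controls overlapped. With array weights 7 of 74 members passed the limma threshold between the controls: Snord53, Scarna17, Snora30, Snord15a, Snord92, Snord42b and Snord118. Under that setting 819 of 14002 probe sets did (5.85%), against 68 without weights.

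Host genes were read from the RefSeq gene spans of GRCm38.p6, which gave a containing gene for 70 of the 74 tested members and 56 different hosts. The gene table gives no strand for this match, so some hosts could lie on the other strand. Members without one were Snord118, Snord13, Scarna2 and Snord89. For 48 members the host was tested too, through 38 host genes. Host probe sets were taken by gene identifier and highest mean, with no check of where they lie. Some of the 38, as for Rps3a1 below, may therefore read another locus. These hosts did not follow the array order of their RNAs: their median deviation in flox control 1 was 0.01, and 11 of 38 were highest there. Across the 48 pairs the fold changes of member and host had a Pearson r of -0.28 (cKO and both controls), -0.11 (cKO and flox control), -0.23 (cKO and Cre control) and -0.13 (the controls). These describe pairs that share arrays and, in part, hosts. Member and host had the same sign in 11, 15, 22 and 24 of 48 pairs in those comparisons.

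**Figure D5:**
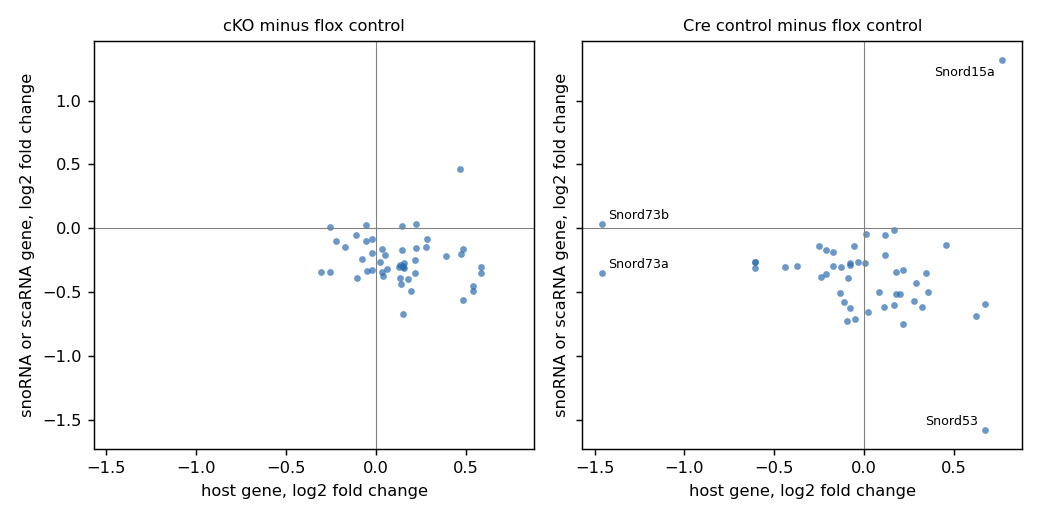
Each point is 1 of 48 members with a tested host, with the log2 fold change of the host on the horizontal axis and that of the member on the vertical axis, for the cKO minus the flox control (left) and the Cre control minus the flox control (right). Most points lie below 0 on the vertical axis whichever way the host differs, and in the right panel Snord53 and Snord15a lie at opposite ends over hosts that are both higher.

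The sign of the members was alike over the kinds of host. Between the controls, 16 of 18 members in ribosomal protein genes were lower, 10 of 10 in genes of nucleolar proteins, 4 of 4 in genes of translation factors, 20 of 21 in long noncoding genes and 16 of 17 in other protein genes. A single host probe set passed the threshold in any comparison. It is assigned to Rps3a1, a ribosomal protein gene on chromosome 3. Its identifier lies among those of chromosome 13 genes such as Snora47, so it may read another locus. The set read 9.05, 8.95 and 8.55 in the flox control, 8.38, 8.85 and 8.54 in the cKO, with 7.43 and 7.35 in the Cre control. The Cre control differed from the flox control by -1.46 on the log2 scale (SE 0.19, limma adjusted p = 0.0166). The RNAs inside the span of Rps3a1 differed by -0.35 (Snord73a, SE 0.23) and 0.03 (Snord73b, SE 0.20).

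RNAs of a shared host had differences of unequal size, which were not tested against each other. Members with a mean level above 12, among them Snord99 and Snord49b, had narrower ranges (median 0.46) than those at 8 to 12 (1.05). Sizes at unlike levels can therefore not be compared directly. Snhg12, a noncoding gene that holds 4 tested members, was itself below the level filter, with a highest value of 5.42. Snora61 in it read 11.05, 10.30 and 9.51 in the flox control, 10.05, 10.02 and 10.12 in the cKO, with 9.83 and 9.72 in the Cre control. Snora44 read 11.22, 10.77 and 10.25, then 9.91, 10.55 and 10.30, then 10.31 and 9.87, and Snora16a ran from 10.82 to 11.94. Snord99 ran from 11.78 to 12.16. All 4 were highest in flox control 1, and their differences between the controls went from -0.66 for Snora44 to -0.03 for Snord99.

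In 2410006H16Rik, also noncoding, the 3 members differed by -0.31 to -0.26 between the controls. Snord49a ran from 10.57 to 11.54, with its highest level in flox control 1, and Snord65 from 9.71 to 10.50. Snord49b ran from 11.98 to 12.49 and was highest in flox control 2. The host read 8.80, 8.72 and 8.46 in the flox control, 8.64, 8.77 and 8.50 in the cKO, with 7.99 and 8.11 in the Cre control. It differed between the controls by -0.61 (SE 0.15, limma adjusted p = 0.108), in the direction of its 3 RNAs. In Kansl2, Snora2b and Snora34 both had negative differences between the cKO and the flox control, of -0.67 and -0.30 (log2).

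The proteins that make and carry these RNAs were measured on the same arrays. No gene of the 3 tested box C/D core proteins, the 4 box H/ACA core proteins, the 9 assembly and transport factors, the 7 Cajal body genes, the 9 genes of intron release and trimming or the 13 long noncoding host genes passed the limma threshold in any comparison. At unadjusted p under 0.05 these lists gave 0, 0, 0, 2, 0 and 0 genes for the cKO against both controls, and 0, 1, 1, 2, 2 and 2 between the controls. For the cKO against the flox control they gave 0, 0, 2, 0, 1 and 1, and against the Cre control 0, 0, 0, 2, 2 and 0. Of all probe sets, 9.52% (both controls), 8.26% (flox control) and 13.5% (Cre control) were at that unadjusted p for the cKO. Between the controls 2059 of 14002 were. Among core proteins, Nop56 of the box C/D particle read 9.28, 8.84 and 8.37 in the flox control, 8.50, 8.86 and 8.90 in the cKO, with 8.60 and 8.31 in the Cre control. Dkc1, which encodes dyskerin, differed between the controls by 0.29 (SE 0.12, limma adjusted p = 0.324).

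The smallest p-values in these lists came from Smn1, Xrn1, Snhg6 and Tgs1. Smn1, needed for the assembly of spliceosomal particles, read 6.64, 6.83 and 6.49 in the flox control, 7.15, 6.83 and 6.79 in the cKO, with 6.27 and 6.02 in the Cre control. The difference was 0.52 for the cKO against both controls (SE 0.13, limma adjusted p = 0.334) and 0.77 against the Cre control (SE 0.16, limma adjusted p = 0.123). Xrn1, a cytoplasmic exonuclease, was higher in the Cre control than in the flox control by 0.71 (SE 0.20, limma adjusted p = 0.140). Tgs1, which methylates the cap of several short RNAs and stands in 2 of the lists, differed by 0.51 (SE 0.17, limma adjusted p = 0.211) and Snhg6 by 0.46 (SE 0.15, limma adjusted p = 0.189) in the same comparison.

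MicroRNA genes, the other large class of short RNA genes on the array, differed between the controls the other way. Of 183 tested genes with a Mir symbol, 122 were higher and 61 lower in the Cre control, with a median of 0.16. The limma threshold was passed by 5, all higher, against 0.486% of all probe sets. They were Mir680-2 (1.16), Mir5124a (1.35), Mir23b (1.27), Mir669j (1.21) and Mir669k (1.28), with limma adjusted p from 0.0149 to 0.0409. Mir680-2 read 9.16, 9.48 and 9.49 in the flox control, 9.76, 9.55 and 9.66 in the cKO, with 10.60 and 10.48 in the Cre control. The groups of controls did not overlap for these 5, which adds nothing, since they were picked by this same comparison. Of all probe sets, 15.3% lay wholly higher in the Cre control.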

How the data were processed

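The values are log2 probe set intensities that the authors deposited after background subtraction and Robust Multiarray Analysis in Affymetrix Expression Console, per the series' design text. The RNA isolation kit and the labelling kit in that text are not those of the labels' protocols. Which were used was not settled here, and recovery of short RNA can depend on both. No source used here gives the genome build of the probe annotation. Of 34472 probe sets, 23521 had 1 symbol. The 14002 above the median of all values in at least 2 arrays were compared with limma 3.58.1 (R 4.3.3), as 3 group means over 8 arrays, two-sided, with Benjamini-Hochberg adjustment over all 14002 and a threshold of 0.05. On simulated data a log2 change of 1 was recovered in 95.5% (cKO against both controls), 91.8% (flox control) and 83.7% (Cre control) of the changed probe sets among 14002, and a change of 0.5 in 26.4%, 13.8% and 7.15%. The share of false calls was 6.21%, 6.17% and 5.65%. Noise was independent between probe sets, and the changed ones were drawn from all 14002. Members spread more within groups (median SD 0.29 against 0.18) and moved together, so these rates do not carry over to them. Named members were those past the threshold, the 4 with the smallest p in each direction of each comparison, the 6 with the widest range, Scarna genes, and members of hosts with 3 or more. Others are named to complete a count of this kind or to show a host, and were chosen after their values were seen. The members and lists were chosen with earlier results of these data known. Labels do not say whether pools were separate experiments, so p-values measure the spread between these pools. Precision is limited by the number of arrays. Of the Cre control, 2 pools were analysed here of the 3 that the design text states per genotype. Alternatives covered the filter, scaling, variance model, array weights, pools left out and a covariate.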

Additional observations from a re-analysis of the deposited data

How the results depend on the processing

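No paired analysis was possible because the sample numbers in the titles do not repeat between groups. The number of members past the threshold between the controls, 1 as reported, was 7 of 74 with array weights (where 819 of 14002 probe sets passed, against 68), 0 with the member median as a covariate (chosen after seeing the data), and 0 to 2 with single pools left out. For the cKO against the Cre control it was 0 to 1 with single pools left out. It stayed at 0 against both controls and against the flox control under every alternative run. The cause was not tested. Some differences changed sign. Snora2b against both controls, -0.36 as reported and not past the threshold, was 0.013 without the pools whose sex-linked transcripts differ. Of the differences near 0, Snord47 was -4e-04 between the controls under quantile scaling and -0.016 to 0.095 with single pools left out, and -0.012 to 0.090 for the cKO against the flox control. Snord89 for the cKO against the flox control was -0.0064 to 0.076 with single pools left out, -0.0045 without the pools whose sex-linked transcripts differ and -0.011 with the covariate. Quantile scaling and median centring moved the median of all probe sets by less than 0.1. The median difference of the members ranged from -0.15 to 0.09 (both controls), -0.43 to 0.02 (flox control), 0.03 to 0.23 (Cre control) and -0.58 to -0.19 (between the controls) over the alternatives, against a pooled SD of 0.29 between pools of a group.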
